A study of Mus musculus with 8 samples.

Results

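Fatty acid oxidation and ketogenesis were followed through 37 genes, taken from a list of gene names and found on the arrays by their probe annotation, with renamed genes found by accession. They were 37 of 63328 distinct gene names on both array designs, and all 37 had at least 1 probe on each. The list held proteins of fatty acid uptake and binding, acyl-CoA synthetases, the carnitine shuttle, the enzymes of mitochondrial and peroxisomal beta-oxidation, the electron transfer flavoprotein, enzymes of ketone body metabolism, and regulators and targets of the pathway.

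Hepatocytes are a main site of fatty acid oxidation. Long-chain fatty acids are activated to acyl-CoA, carried into mitochondria as carnitine esters and shortened by repeated rounds of dehydrogenation, hydration, dehydrogenation and thiolysis, while peroxisomes shorten very long and branched chains. In fasting the liver turns much of the acetyl-CoA formed into ketone bodies, which other tissues burn and hepatocytes cannot, and the nuclear receptor PPAR-alpha (Ppara) is known to switch on many of these genes.

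RNA was measured on 8 one-colour arrays from mice, 2 for each of 4 groups. Lin- BM cells were bone marrow cells depleted of lineage-positive cells by magnetic sorting, from female donors of the strain C57Bl6/J-Tg(UBCGFP)30Scha/J, which carry eGFP under the ubiquitin C promoter. BM-derived hepatocytes were eGFP+ cells sorted by flow cytometry from collagenase-perfused liver 1 month or 5 months after such Lin- cells had been injected into the tail vein of male hemophilia A mice, which carry the factor VIII allele F8tm1Kaz and whose liver had been injured with acetaminophen. The comparator was primary hepatocytes, and the strain of their donors, as well as the feeding state and hour of collection of every group, is not given in the sources used here. Hepatocytes were gathered by a low-speed spin, which enriches but does not purify them, and an eGFP+ cell can also arise by fusion of a donor cell with a host hepatocyte. Cells of several mice were pooled for each array, so all p-values measure the spread between pools.

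Lin- cells (arrays L3 and L4) and 1-month cells (B1 and B2) were hybridised on one slide, slide 1, and primary hepatocytes (H2 and H4) and 5-month cells (G1 and G3) on another, slide 2, of a different design. Between 47.7% and 58.6% of spots were well above background on each array, and the upper quartile of the signal was lowest in the 1-month arrays, at 75.5 and 89.5 against 122.2 to 193.4 in the other 6. A level below is the log2 signal of a probe minus the 75th percentile of its array, so that 0 is the upper quartile. Of 8 hepatocyte marker genes, all 8 were above background in every 1-month, primary and 5-month array, whereas Alb, Apoa1, Apob, Ttr and Cps1 were above it on no Lin- array. The other 3, Asgr1, Tat and Hnf4a, were above background on both Lin- arrays, at mean levels of -2.66, -3.79 and -3.29. They were higher at 1 month by 10.52, 11.38 and 7.14 on the log2 scale. All 7 blood progenitor markers were above background in both Lin- arrays and 4 of 7 in both 1-month arrays. Their summed level was 1.81 to 2.63 at 1 month against 8.87 to 8.93 in Lin- cells. On slide 2, 4 of 7 were above it in both primary arrays and 5 of 7 in both 5-month arrays. The sums there were 0.63 to 1.05 and 0.81 to 1.13. As these are bulk samples, fewer cells of a type and less RNA per cell cannot be told apart.

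The first comparison asked how the pathway stood in 1-month BM-derived hepatocytes against Lin- cells of the kind transplanted, both on slide 1. Of the 37 genes, 36 were higher at 1 month by the call used throughout, a log2 change over 0.6 in size with limma's adjusted p under 0.05, and none was lower, beside 28.8% of all 28535 genes tested called higher and 26.5% called lower. The median log2 change of the 37 was 3.20, beside 0.07 over all genes. The range ran from 1.54 for Acsl5 to 7.16 for Pdk4 among genes detected in both Lin- arrays. In 5 genes, Fabp1, Acox2, Ppara, Fgf21 and Vnn1, neither Lin- array was well above background, so that only a lower bound of the fold could be given. The other 32 genes were above background in both Lin- arrays. No gene of the 37 had overlapping arrays between the groups, and the share of all genes without overlap was not counted. By limma's unadjusted p, all 37 were under 0.05, beside 62% of all genes.

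**Figure D1:**
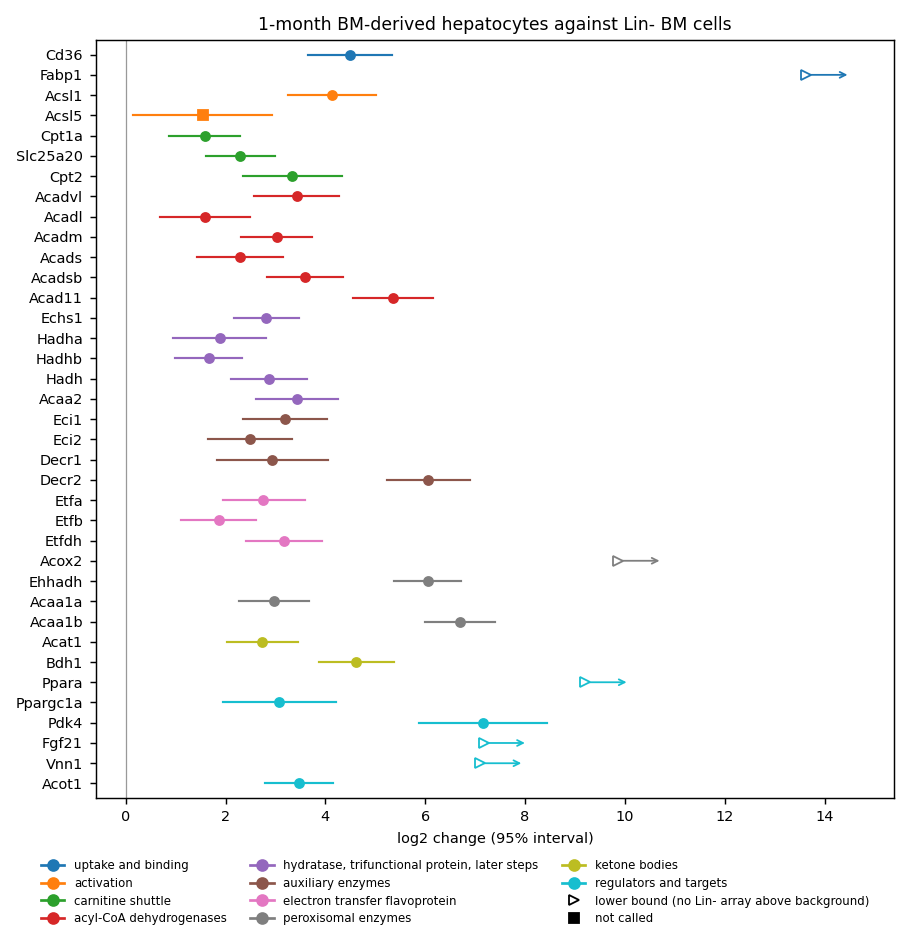
Log2 change of each of the 37 genes in 1-month BM-derived hepatocytes against Lin- BM cells (horizontal axis), with 95% intervals from limma as lines and colours for the role of the gene. Open triangles with arrows are lower bounds for the 5 genes with no Lin- array above background, and the square is Acsl5, which was not called. Every point lies to the right of 0.

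Among genes of uptake, Fabp1, the liver fatty acid-binding protein, had slide 1 levels of -6.75 and -4.93 in Lin- cells, both at background, and of 8.91 and 9.37 at 1 month. The 1-month level was at least 12700-fold higher, the largest bound of the 37 (limma, adjusted p = 0.000205). Cd36, a fatty acid translocase of the plasma membrane that macrophages and endothelium also carry, had levels of -1.15 and -0.66 in Lin- cells and 3.78 and 3.39 at 1 month. It was detected in both groups and rose by 4.49 on the log2 scale, 22.5-fold (95% interval 3.66 to 5.33, limma adjusted p = 0.00073).

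Promoter sequence of both genes is shown because they were the members of the uptake step and because their windows held matches to the direct repeat bound by PPAR-alpha with its partner RXR. The 250 bases before each start were read from RefSeq's mouse table (GRCm38.p6) and searched on both strands for AGGTCANAGGTCA, where N is any base, with up to 2 mismatches. Each sequence runs 5' to 3' toward the start of the gene, with a match in capitals.
Fabp1, chr6:71199629-71199878, plus strand: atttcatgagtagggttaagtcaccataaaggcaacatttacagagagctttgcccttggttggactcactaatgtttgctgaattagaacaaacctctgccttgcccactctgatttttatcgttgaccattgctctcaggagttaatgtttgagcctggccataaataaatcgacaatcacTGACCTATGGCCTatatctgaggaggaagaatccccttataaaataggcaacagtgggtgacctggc
Cd36, chr5:17835897-17836146, minus strand: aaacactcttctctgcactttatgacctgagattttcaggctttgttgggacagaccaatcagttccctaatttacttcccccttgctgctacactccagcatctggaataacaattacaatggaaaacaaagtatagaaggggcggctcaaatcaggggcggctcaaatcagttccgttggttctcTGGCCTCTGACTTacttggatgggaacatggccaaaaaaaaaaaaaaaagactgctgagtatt
The Fabp1 match, at base 67 before the start and on the opposite strand, had 1 mismatch, and the Cd36 match, at base 63, had 2. The Cd36 window precedes a start inside the annotated gene, which spans bases 17781690 to 17888959. Whether the Cd36 probe reads transcripts from that start was not tested. Windows with up to 1 mismatch made up 0.484% of 32851 promoter windows, and windows with up to 2 made up 3.24%. Entries were found for 33 of the 37 genes, in 36 windows, and 4 genes had a match with up to 2 mismatches, the others being Echs1 and Etfa. Acaa2, Decr1, Acat1 and Vnn1 had no entry. The AGGTCA core alone stood in 6 of the 36 windows and in 14.0% of all windows. A match in letters is a description of the sequence and no evidence of binding.

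Activation of fatty acids is done by acyl-CoA synthetases. Acsl1, the main long-chain synthetase of liver, rose by 4.13 (adjusted p = 0.00105 by limma). Acsl5, another long-chain synthetase, was the only gene not called. Its levels were 2.69 and 4.16 in Lin- cells and 4.78 and 5.14 at 1 month, so that the Lin- arrays stood apart from each other by nearly as much as the groups did. The log2 change was 1.54, with an interval of 0.14 to 2.94 and an adjusted p of 0.0634 by limma, and without Lin- array L4 it was 2.27 with an adjusted p of 0.0171.

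All 3 genes of the carnitine shuttle rose, with a median log2 change of 2.30. Cpt1a, the outer-membrane transferase that controls entry of long chains into mitochondria, had levels of 3.79 and 4.05 in Lin- cells and 5.61 and 5.38 at 1 month. It was well expressed in both groups and rose by 1.58, 2.99-fold (limma, adjusted p = 0.00858), one of the smaller changes of the list. The carnitine-acylcarnitine translocase Slc25a20 rose by 2.30 and the inner-membrane transferase Cpt2 by 3.34.

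All 6 acyl-CoA dehydrogenases rose. Acadm, which takes medium chains, had levels of 4.57 and 4.23 in Lin- cells and 7.42 and 7.43 at 1 month. Its change of 3.03, 8.14-fold, was several times the difference within either pair (limma, adjusted p = 0.0014). The changes were 3.43 for Acadvl (very long chains), 2.29 for Acads (short chains), 3.59 for Acadsb (short branched chains) and 5.35 for Acad11, another family member. Acadl, for long chains, had the smallest called change of the group, 1.59 (adjusted p = 0.0164 by limma), and was not called without 1-month array B1 or B2, with adjusted p-values of 0.076 and 0.0663.

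The following steps of the mitochondrial spiral rose in all 5 genes measured. Echs1, the short-chain hydratase, rose by 2.81, Hadh, the hydroxyacyl-CoA dehydrogenase, by 2.87, and Acaa2, the mitochondrial thiolase, by 3.43. Hadha and Hadhb, the alpha and beta subunits of the trifunctional protein, form 1 complex and are transcribed from neighbouring starts in opposite directions. Their changes were similar and among the smallest of the list, 1.89 for Hadha (95% interval 0.95 to 2.82) and 1.66 for Hadhb (0.99 to 2.33). Hadha had levels of 0.47 and 1.25 in Lin- cells and 2.86 and 2.63 at 1 month, and Hadhb 4.39 and 4.55 against 6.18 and 6.08. Both were above background everywhere and did not overlap between groups, although Hadha was not called without array B1 (limma, adjusted p = 0.0588).

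The shared promoter of this pair is shown because both subunits are read from it. The starts of Hadha (minus strand) and Hadhb (plus strand) lie 273 bases apart on chromosome 5, and the 250 bases before Hadha, printed toward its start, hold most of the stretch between them.
Hadha, chr5:30154981-30155230, minus strand: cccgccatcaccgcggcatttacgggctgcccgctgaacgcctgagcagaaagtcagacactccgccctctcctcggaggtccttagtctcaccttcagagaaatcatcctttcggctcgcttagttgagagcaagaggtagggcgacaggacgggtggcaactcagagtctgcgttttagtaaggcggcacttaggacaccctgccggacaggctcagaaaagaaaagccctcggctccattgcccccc
No stretch of it matched AGGTCANAGGTCA with up to 2 mismatches, which says only that these letters are not in this window.

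Auxiliary enzymes deal with double bonds that the spiral cannot pass, and all 4 rose. The isomerases Eci1 and Eci2 rose by 3.20 and 2.49, the mitochondrial reductase Decr1 by 2.94 and the peroxisomal reductase Decr2 by 6.06. The electron transfer flavoprotein accepts electrons from the acyl-CoA dehydrogenases, and its subunit genes Etfa and Etfb rose by 2.76 and 1.86, and the gene of its oxidoreductase, Etfdh, by 3.18.

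The 4 peroxisomal genes were all called, with changes from 2.97 for Acaa1a to the bound of Acox2. Acox2, an oxidase of branched chains and bile acid precursors, was at background in Lin- cells (-5.84 and -5.25) and at 5.32 and 5.42 at 1 month, at least 934-fold higher (limma, adjusted p = 7.32e-05). Ehhadh, the peroxisomal bifunctional enzyme, had levels of -1.32 and -1.46 in Lin- cells and 4.59 and 4.72 at 1 month. The pairs were tight and the change was 6.05, 66.3-fold (limma, adjusted p = 0.000199). The peroxisomal thiolases Acaa1a and Acaa1b rose by 2.97 and 6.69 on their brightest probes, and the other two Acaa1a probes gave 4.50 and 5.28. These paralogs are nearly identical, and how much of the Acaa1a signal their probes share was not tested. Acaa1b had levels of 1.81 and 1.87 in Lin- cells and 8.37 and 8.69 at 1 month.

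Of the ketone body genes, Bdh1, which interconverts acetoacetate and hydroxybutyrate, had levels of 3.05 and 2.71 in Lin- cells and 7.66 and 7.36 at 1 month, a rise of 4.62 or 24.7-fold (limma, adjusted p = 0.000521). Acat1, the mitochondrial acetoacetyl-CoA thiolase, rose by 2.73.

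Regulators and targets were split between genes at background in Lin- cells and genes detected there. Ppara read -6.65 and -6.64 in Lin- cells, at background, and 5.03 and 4.40 at 1 month, at least 591-fold higher (limma, adjusted p = 7.18e-05). The hormone Fgf21, a PPAR-alpha target released by liver in fasting, read -6.70 and -6.52 at background and then 2.91 and 2.45, at least 144-fold higher. Vnn1, a pantetheinase and PPAR-alpha target, read -4.39 and -6.08 at background and then 2.83 and 2.43, at least 137-fold higher. In these 3 genes the groups were far apart on every array. Pdk4, the kinase that shuts off pyruvate dehydrogenase and so spares glucose, was detected in Lin- cells at -3.04 and -2.69 and stood at 4.94 and 3.64 at 1 month. Its rise of 7.16, 143-fold, was the largest of the genes detected in both groups (limma, adjusted p = 0.000682), and it was also the only gene of the 37 whose 1-month arrays differed by over 1, beside 11.5% of all genes. The coactivator Ppargc1a rose by 3.08 and the thioesterase Acot1 by 3.47.

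A second list held 94 other genes of the pathway, and 88 were tested in this comparison. Of these, 70 were called higher and 4 lower, beside 28.8% and 26.5% of all genes. The median over the 88 was 2.40 (log2). The largest fitted rises were 12.56 for the bile acid and fatty acid ligase Slc27a5, 12.47 for Cyp4a14 and 11.31 for Cyp4a31, the latter pair being fatty acid omega-hydroxylases of a family of close paralogs. In Slc27a5 and Cyp4a14 only 1 of the 2 Lin- arrays was above background. The largest falls were in Pdk3, a pyruvate dehydrogenase kinase, Oxct1, the enzyme that lets tissues other than liver burn ketone bodies, and Fabp3, the heart fatty acid-binding protein. Oxct1 had levels of 5.95 and 6.64 in Lin- cells and 1.15 and 1.65 at 1 month, and it fell by 4.90 on the log2 scale (limma, adjusted p = 0.000849). Pdk3 and Fabp3 were above background on no 1-month array and were at least 31.2-fold and 3.05-fold lower.

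Markers of other cell types also differed between these groups, in both directions. All 8 Kupffer cell markers were above background in both 1-month arrays and 4 of 8 in both Lin- arrays, where Clec4f and Vsig4 were on none, with summed levels of 3.47 to 5.40 against 0.53 to 2.21. Of 7 markers of sinusoidal endothelium, 6 were above background in both 1-month arrays and 5 in both Lin- arrays, with sums of 5.89 to 6.10 against 0.66 to 0.72, although 1 of them, Pecam1, was lower at 1 month (-2.52, limma adjusted p = 0.00401). The 7 markers of stellate cells and fibroblasts summed to 4.85 to 5.11 at 1 month and 5.29 to 7.46 in Lin- cells, with 5 of 7 above background in both arrays of either group. Among them Col1a1, at background at 1 month, was at least 361-fold lower and Pdgfrb was lower by 4.09 on the log2 scale, both called by limma. Lrat, at background in Lin- cells, was at least 12.2-fold higher and Reln was higher by 2.83, both also called. Dcn (2.07) and Acta2 (-1.36) were not called, and Des was above background on no array of either group. Sums of the lymphocyte and neutrophil markers were 0.09 to 0.46 and 0.63 to 1.42 at 1 month, against 5.49 to 6.66 and 6.85 to 9.30. The part of these cells in the values of the list was not tested. Of 4 adipocyte genes, Adipoq, Plin1 and Lep were above background on no 1-month array, and Adipoq was above it on both Lin- arrays. The remaining gene, Cidec, was detected in both groups and was higher at 1 month by 3.32 on the log2 scale (limma, adjusted p = 0.00175). In the 8 genes of the list with more than 1 probe on slide 1, no probe went against the others, but sizes differed. Second probes gave 4.53 for Ppargc1a and 2.06 for Etfdh, where the brighter ones gave 3.08 and 3.18.

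The second comparison asked whether the pathway in 5-month BM-derived hepatocytes differed from that in primary hepatocytes, both on slide 2. None of the 37 genes was called, beside 0.552% of 19933 genes tested (110 genes). By limma's unadjusted p, 5 of the 37 (13.5%) were under 0.05, beside 14.1% of all genes. The t-test named in the study's methods, with the same limit on the change, called 3 before adjustment, beside 1363 of 19928 genes. After adjustment it called 0, beside 0 of all genes. The change was positive in 12 genes and negative in 25, with a median of -0.20 beside 0.04 over all genes, and ran from -0.93 for Fgf21 to 1.24 for Cd36. In 21 genes the 95% interval of the brightest probe lay within 1 log2 unit of 0 on both sides. In 16 it reached past it. On that probe, differences of over 2-fold were outside the interval for the former and inside it for the latter. Some of the former had a dimmer probe past 1, with -1.27 for Bdh1, -1.26 for Cpt2 and -1.21 for Etfa. Their other dimmer probes gave 0.14 for Bdh1, -0.60 for Acsl1 and -0.20 for Decr1.

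**Figure D2:**
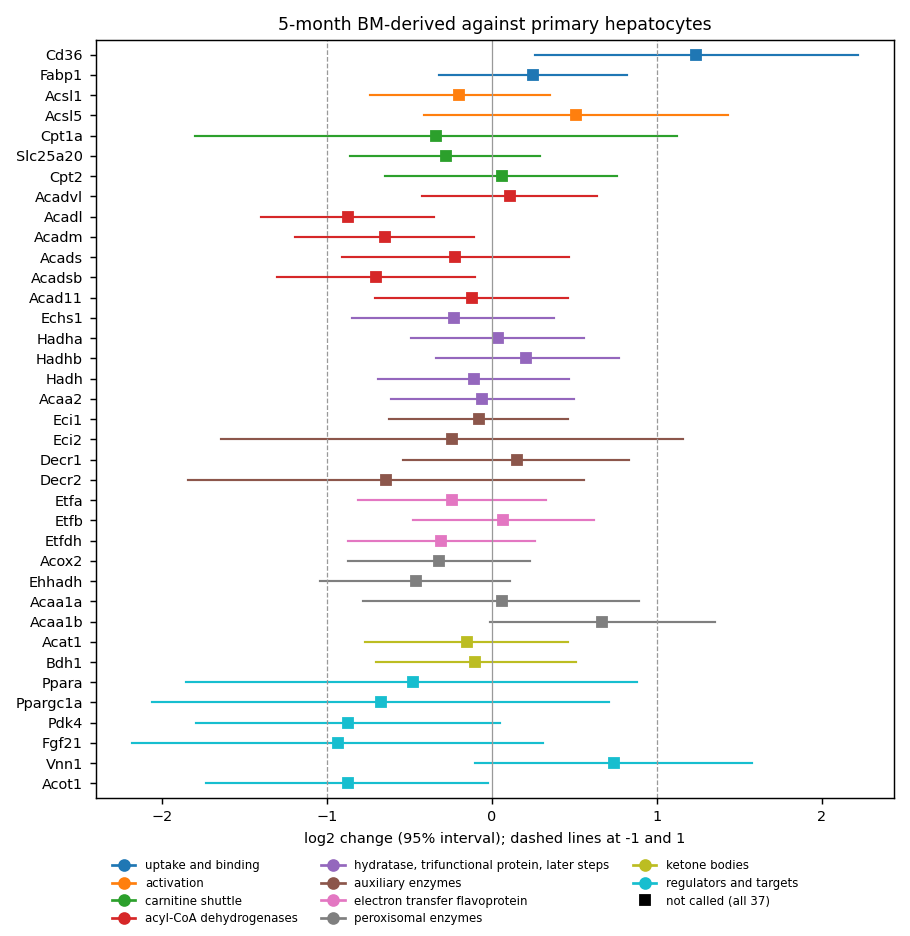
Log2 change of each of the 37 genes in 5-month BM-derived against primary hepatocytes (horizontal axis), with 95% intervals from limma, coloured by role. Dashed lines mark -1 and 1. No gene was called, and intervals were narrow for most enzymes and wide for Cpt1a, Eci2, Decr2 and several regulators.

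Several enzymes of the spiral had small differences with narrow intervals. Hadha had slide 2 levels of 3.14 and 3.15 in primary hepatocytes and 3.14 and 3.22 at 5 months, a change of 0.04 (95% interval -0.49 to 0.56), and its partner Hadhb changed by 0.21 (-0.34 to 0.77). Acadvl, at 9.20 and 9.21 in primary hepatocytes and 9.27 and 9.35 at 5 months, changed by 0.11 (-0.42 to 0.64). These were among the narrowest intervals of the list, and neither side of any of them reached 1. The changes of Acaa2, Eci1, Hadh, Echs1, Etfb, Etfa and Etfdh lay between -0.31 and 0.07. For the ketone body genes Bdh1 and Acat1 the values were -0.10 and -0.15. Across the 94 other pathway genes, 0 of 89 tested were called by limma, with a median of -0.04. Of the 89, 13 had an unadjusted p under 0.05 by limma, beside 14.1% of all genes.

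Dehydrogenases of long, medium and branched chains were lower in value at 5 months. Acadl had levels of 4.33 and 4.39 in primary hepatocytes and 3.48 and 3.49 at 5 months. The pairs were tight and did not overlap, and the difference of -0.87 (95% interval -1.40 to -0.35) had the smallest unadjusted p of the 37, yet an adjusted p of 0.198 by limma. Acadm had levels of 7.68 and 7.54 against 6.93 and 6.99, a difference of -0.65 (adjusted p = 0.298 by limma). Acadsb differed by -0.70 on its brighter probe, and its dimmer probe went the other way, from background on both primary arrays (-6.10 and -5.59) to above it on both 5-month arrays (-2.89 and -3.36).

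Cd36 was the one gene of the list over 1 in the positive direction. It had levels of 2.38 and 1.47 in primary hepatocytes and 3.12 and 3.21 at 5 months, which did not overlap. The difference was 1.24 (95% interval 0.26 to 2.22) with an adjusted p of 0.281 by limma, and without primary array H2 it was 1.70 with an adjusted p of 0.0224. The summed level of the 8 Kupffer cell markers, all above background on these 4 arrays, was 4.58 to 5.66 in primary hepatocytes and 6.61 to 6.67 at 5 months. For the 7 endothelial markers the sums were 5.78 to 5.93 and 5.88 to 6.19. The part of either in the Cd36 values was not tested.

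Targets of PPAR-alpha were lower in value at 5 months in some cases and higher in others. Fgf21 had levels of 1.06 and 2.29 in primary hepatocytes and 0.64 and 0.84 at 5 months, a difference of -0.93 (95% interval -2.18 to 0.31). Pdk4 read 2.01 and 1.17 against 0.75 and 0.69, a difference of -0.87 (-1.79 to 0.05). Acot1 read 5.74 and 6.48 against 5.23 and 5.24, a difference of -0.87 (-1.73 to -0.02). In all 3 the 5-month arrays lay below both primary arrays, but the primary arrays were far apart. Vnn1 and Acaa1b differed by 0.74 and 0.67, Ehhadh by -0.46, Ppara by -0.48 and Ppargc1a by -0.67, none called. Without primary array H2, Fgf21 (-1.55), Acot1 (-1.24) and Decr2 (-1.24) were called lower by limma, with adjusted p-values of 0.0302, 0.0459 and 0.0475, and without H4, Pdk4 was (-1.28, adjusted p = 0.0425). Calls over all genes moved the same way, from 110 to 1532 without H2 and 1624 without H4, and to 0 without G1 or G3.

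Uptake and activation had no call in the remaining genes, with differences of 0.25 for Fabp1, -0.20 for Acsl1 and 0.51 for Acsl5. In the carnitine shuttle the values were -0.34 for Cpt1a (95% interval -1.80 to 1.12), -0.28 for Slc25a20 and 0.06 for Cpt2. The other dehydrogenases, Acads and Acad11, stood at -0.22 and -0.12, the auxiliary enzymes Eci2, Decr1 and Decr2 at -0.24, 0.15 and -0.64, and the peroxisomal enzymes Acox2 and Acaa1a at -0.32 and 0.06. Probes of 1 gene disagreed in direction on this slide for 5 of the 9 genes with more than 1 probe, namely Acadsb, Bdh1, Cpt2, Decr1 and Ppara.

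Arrays of a pair were also set against each other. The 2 primary arrays differed by over 1 in 6 of the 37 genes (16.2%), all of them higher on H4, beside 15.1% of all genes. These were Cpt1a (4.83 and 6.33 on H2 and H4), Eci2 (7.29 and 8.73), Ppara (5.73 and 7.11), Fgf21 (1.06 and 2.29), Ppargc1a (1.89 and 3.12) and Decr2 (5.70 and 6.89). The share was near that of all genes, so the list did not stand apart in it. Ppara was higher on H4 by each of its 3 probes, the other two reading 4.19 and 5.88, and 3.81 and 6.18, and the dimmer Cpt1a probe read 1.51 and 2.74. Cd36, Acsl5 and Pdk4 were lower on H4, by 0.91, 0.84 and 0.83. The markers of erythroid cells summed to 7.12 on H2 and 9.14 on H4, those of stellate cells and fibroblasts to 3.17 and 5.54 and those of Kupffer cells to 4.58 and 5.66, and their part in the spread was not tested. Between the 5-month arrays no gene of the 37 differed by over 1, beside 3.74% of all genes, and the median difference was 0.09 in size, beside 0.23.

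**Figure D3:**
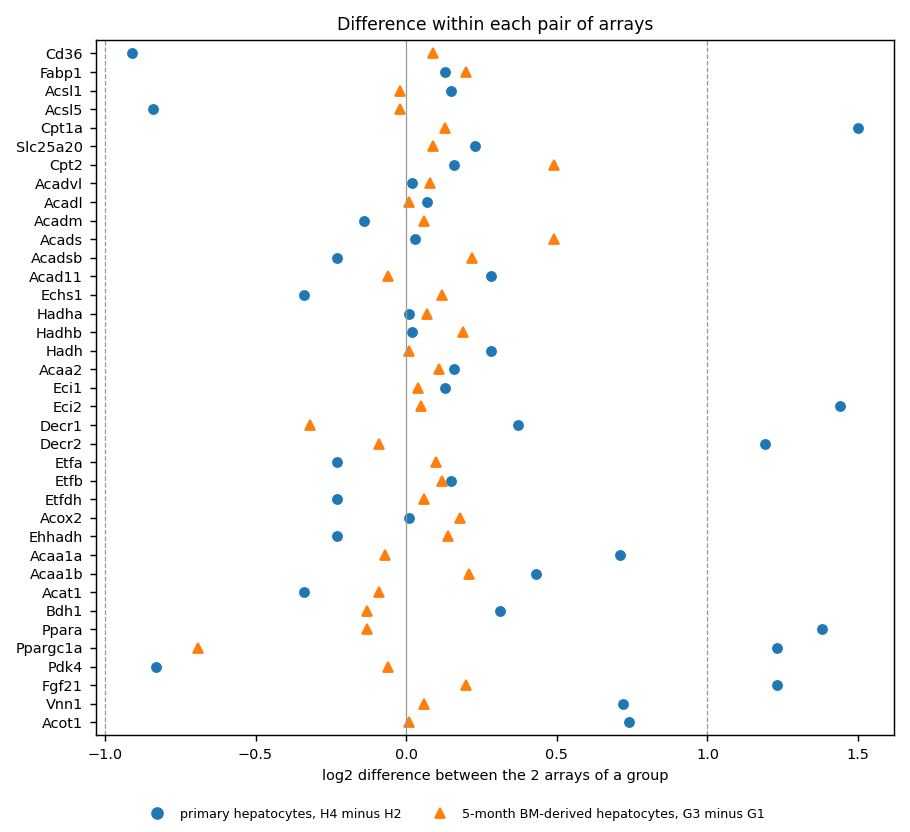
Log2 difference between the 2 arrays of a group for each of the 37 genes (horizontal axis), for primary hepatocytes (circles, H4 minus H2) and 5-month BM-derived hepatocytes (triangles, G3 minus G1). Dashed lines mark -1 and 1. In 6 genes the circle lies beyond 1, and no triangle lies beyond either line.

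Comparisons between slides used only the 13991 probes of identical sequence on both designs, rescaled over those probes, so that shared-probe levels are not on the scale of the levels above. They covered 26 of the 37 genes. Acadvl, Acad11, Acox2, Acaa1a, Hadhb, Eci2, Cpt2, Etfb, Etfdh, Ppara and Acot1 had no shared probe. Slide and group cannot be told apart here, since no group was on both slides.

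Against Lin- cells, primary hepatocytes had 26 of 26 genes higher and none lower, beside 29.3% of 9234 genes called higher and 38.1% called lower, with a median log2 change of 3.72 against -0.29 over all genes. For 5-month cells, 25 of 26 were higher and none lower, beside 29.3% and 37.7%, with a median of 3.67 against -0.30. The gene without a call was Cpt1a, at shared-probe levels of 2.42 and 2.52 in Lin- cells and 3.55 and 3.63 at 5 months. The pairs were tight, but the change of 1.12 had an adjusted p of 0.0721 by limma, and 0.00542 without the primary hepatocyte array H2 or H4, which enter the common estimate of spread. Some of the smaller calls were lost when single arrays were left out. At 5 months, Acadl (0.73, limma adjusted p = 0.0408) was, of the 8 fits with 1 array left out, called only in that without L4, with changes of 0.43 without L3 and 1.03 without L4, and Etfa (1.14, adjusted p = 0.0444) only without H2 or H4, with adjusted p-values up to 0.20. In primary hepatocytes Cpt1a (1.42, limma adjusted p = 0.0327) was called only without H2, with changes of 2.19 without H2 and 0.65 without H4 (adjusted p = 0.0769), and Acsl5 (1.64) was lost without L3 (0.98, adjusted p = 0.0853) or H2 (1.24, adjusted p = 0.106). These comparisons share the Lin- arrays with each other. Of the 94 other pathway genes, 42 of 50 tested were higher and 1 lower in primary hepatocytes, and 39 higher and 1 lower at 5 months.

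The 1-month cells were set against the later stage and against primary hepatocytes, 2 comparisons that share the 1-month arrays. At 5 months against 1 month, 2 of 26 genes were higher, beside 5.84% of all genes, and 3 were lower, beside 11.3%. At 1 month against primary hepatocytes, 2 were higher, beside 11.7%, and 3 lower, beside 5.12%. The median changes were 0.08 and -0.03, against -0.14 and 0.18 over all genes. Scaling over all probes instead moved the median of all genes by 0.23 and -0.27, and with it the share of higher among all calls from 34.0% to 52.4% and from 69.5% to 50.1%, while the list had 3 higher and 3 lower, and 2 higher and 4 lower.

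**Figure D4:**
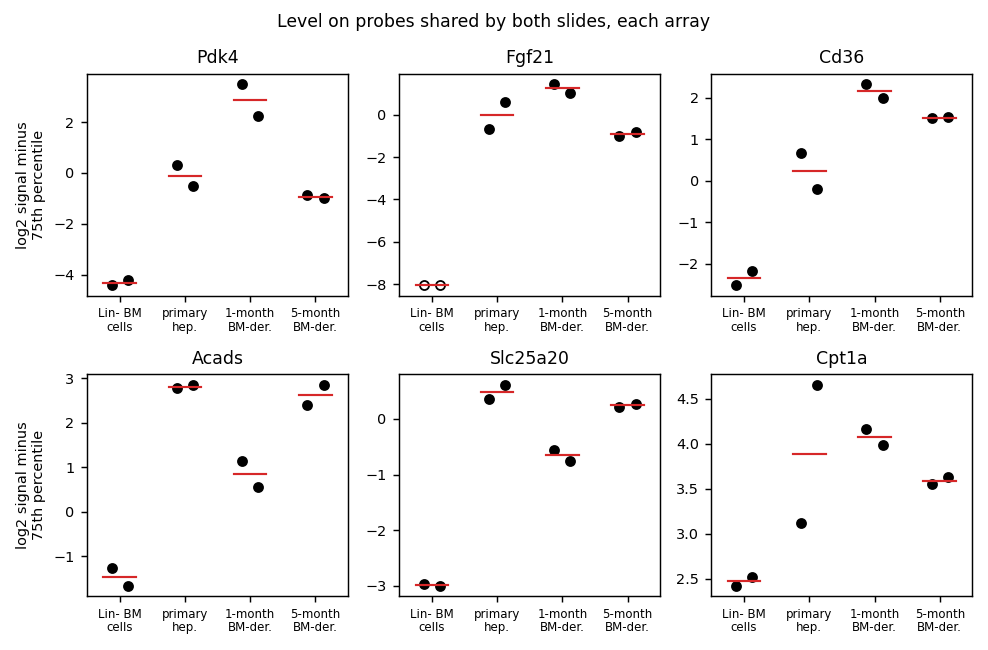
Shared-probe levels (log2 signal minus the 75th percentile, vertical axes differ between panels) of 6 genes on each array, with a red line at the mean of each group. Open circles are not well above background. Pdk4 and Fgf21 were highest at 1 month, Acads and Slc25a20 were lower at 1 month than in primary and 5-month cells, and the primary arrays of Cpt1a lay far apart.

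Pdk4 had shared-probe levels of -4.42 and -4.22 in Lin- cells, 3.49 and 2.25 at 1 month, 0.30 and -0.50 in primary hepatocytes and -0.87 and -0.98 at 5 months. The 1-month arrays were above all others, and no groups overlapped. It was 7.83-fold higher at 1 month than in primary hepatocytes (log2 change 2.97, limma adjusted p = 0.00948) and 13.9-fold lower at 5 months than at 1 month (-3.79, limma adjusted p = 0.00487). It was the one gene that stayed called in both comparisons with any single array left out, with changes of 2.35 to 3.59 and -4.42 to -3.17. By the methods' t-test neither was called after adjustment, and the difference from primary hepatocytes had an unadjusted p of 0.0568 with 2 arrays a group, where limma pools the spread across genes.

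Fgf21 was at background in Lin- cells, and read 1.46 and 1.06 at 1 month, -0.65 and 0.62 in primary hepatocytes and -0.98 and -0.83 at 5 months. The order was again 1 month, primary, 5 months, and the difference between the latter groups was not called. It was 4.48-fold lower at 5 months than at 1 month (-2.16, limma adjusted p = 0.0195), a call lost without any one of B1, B2, G1 or G3 (adjusted p = 0.0683 to 0.109), and 1.27 higher at 1 month than in primary hepatocytes without a call (limma, adjusted p = 0.087, and 0.0188 without H4).

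Cd36 read -2.53 and -2.18 in Lin- cells, 2.33 and 2.0 at 1 month, 0.67 and -0.20 in primary hepatocytes and 1.5 and 1.54 at 5 months. Both groups of BM-derived cells were above both primary arrays. The difference of 1.93, 3.81-fold, between 1 month and primary hepatocytes was called (limma, adjusted p = 0.0139) and was lost without array B1 (adjusted p = 0.065) or B2 (adjusted p = 0.0525). On shared probes the Kupffer cell markers (6 genes, all above background) summed to 1.92 to 3.87 at 1 month, 2.20 to 3.36 in primary hepatocytes and 4.50 to 4.65 at 5 months, and the endothelial markers (5 genes) to 4.23 to 4.57, 3.67 to 3.69 and 3.90 to 4.13. Their part in the Cd36 values was not tested.

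A few enzymes were at an intermediate level at 1 month. The short-chain dehydrogenase Acads read -1.26 and -1.67 in Lin- cells, 1.15 and 0.56 at 1 month, 2.78 and 2.85 in primary hepatocytes and 2.41 and 2.86 at 5 months. It lay between the Lin- and the other hepatocyte groups on every array, 3.88-fold below primary hepatocytes (-1.96, limma adjusted p = 0.00976) and 3.43-fold below the 5-month level (1.78 from 1 month to 5 months, limma adjusted p = 0.0138). The translocase Slc25a20 read -2.96 and -3.00, then -0.55 and -0.75 at 1 month, 0.36 and 0.62 in primary hepatocytes and 0.22 and 0.27 at 5 months. It was 1.14 below primary hepatocytes at 1 month (limma, adjusted p = 0.0178) and rose by 0.90 from 1 month to 5 months (limma, adjusted p = 0.037). Acadsb was 1.31 below primary hepatocytes at 1 month (limma, adjusted p = 0.0166), with levels of -0.84 and -0.41 against 0.78 and 0.59. Each of these calls was lost when some single arrays were left out, while the changes stayed between -2.25 and -1.66 for Acads, -1.53 and -1.09 for Acadsb and -1.27 and -1.01 for Slc25a20 against primary hepatocytes, and between 1.48 and 2.08 for Acads and 0.80 and 0.99 for Slc25a20 against 1 month. Against primary hepatocytes, Acads was lost without B2 (limma, adjusted p = 0.0546), Acadsb without B1 (0.0792) or H2 (0.0694) and Slc25a20 without B1 (0.0571), B2 (0.104) or H4 (0.0685). In the comparison with 5 months, Acads was lost without B2 (0.0746), G1 (0.0587) or G3 (0.0871), and Slc25a20 without any of the 4 arrays (0.0955 to 0.17).

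Etfa was the remaining call, lower by 1.79 at 5 months than at 1 month (limma, adjusted p = 0.0322). Its shared probe carries another gene name, Gm2893, on the first design and is the dimmer of the Etfa probes on slide 2, where the brighter probe read 7.94 and 7.72 in primary hepatocytes and 7.54 and 7.64 at 5 months. Whether the shared probe measured Etfa alone was not tested, and the call was lost without any one of B1, B2, G1 or G3 (limma, adjusted p = 0.0791 to 0.166).

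The other 19 genes with a shared probe were called in neither comparison. Their log2 changes ran from -0.89 (Acadl) to 0.97 (Fabp1) at 5 months against 1 month and from -1.37 (Ppargc1a) to 0.59 (Acaa1b) at 1 month against primary hepatocytes. For Cpt1a the values were -0.48 (95% interval -1.61 to 0.64) and 0.18 (-0.94 to 1.31), and for Hadha 0.21 (-0.43 to 0.84) and -0.13 (-0.77 to 0.51). Of the 94 other pathway genes, 50 were tested. At 5 months against 1 month 3 were higher and 1 lower, beside 5.84% and 11.3% of all genes. At 1 month against primary hepatocytes 2 were higher and 5 lower, beside 11.7% and 5.12%.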

How the data were processed

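RNA of 8 pooled mouse samples was labelled with Cy3 and hybridised to Agilent arrays, and the scanned images were quantified with Feature Extraction 11.5.1.1. The deposited files hold, per the file headers, one linear intensity per spot: the processed signal (background-subtracted and detrended by the software), the mean signal and the local background, with flags. The authors also deposited log2 values, which equal log2 of the processed signal minus a constant per array (99.9% to 100% of spots within 0.05), close to the upper quartile.

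Here log2 of the processed signal minus the 75th percentile of its array was used, without control spots and outlier flags (6 to 152 per array, 0 saturated). Spots of 1 probe were averaged, which gave 61307 probes on slide 1, 55681 on slide 2 and 13991 of identical sequence on both. A gene was read from its brightest probe among those that passed the background flag in every array of some group. Groups came from the labels. Slides were fitted separately with limma 3.58.1 (R 4.3.3, lmFit and eBayes, Benjamini-Hochberg over all genes), and shared probes in 1 fit of 4 groups. An exact permutation test of 2 arrays against 2 cannot go below p = 0.33, so none is given. The fit was tested on simulated data. "At least" folds set a bright group against, per array, the higher of the dim probe's signal and the lowest signal of a probe well above background. The number of arrays limits the precision.

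All 37 genes are named, each with its arrays' values where a result turns on it. Of the 94 others the 3 largest rises and the 3 largest falls at 1 month were named, and some single genes are not reported here. Markers and both lists were chosen with earlier results of these data known. Alternatives were normexp correction (offset 50), quantile normalization, no filter on dim probes, the mean of probes, the deposited log2 values, scaling over all probes, the methods' t-test and leaving out each array. The Lin- and 1-month design differs from the other, so no probe of different sequence was compared across slides.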

Additional observations from a re-analysis of the deposited data

How the results depend on the processing

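No direction of a called gene reversed under any alternative run. Leaving out 1 array at a time moved the number of calls in the list and over all genes. Against Lin- cells every log2 change of the list stayed positive in these fits. The smallest were 0.81 at 1 month (Acsl5), 0.65 in primary hepatocytes (Cpt1a) and 0.43 at 5 months (Acadl). Changes ran from -1.55 (Fgf21) to 1.70 (Cd36) at 5 months against primary hepatocytes. They ran from -4.42 (Pdk4) to 2.08 (Acads) at 5 months against 1 month, and from -2.25 (Acads) to 3.59 (Pdk4) at 1 month against primary hepatocytes. With normexp background correction 10 genes (6 higher, 4 lower) were called at 5 months against 1 month. At 1 month against primary hepatocytes 9 genes (2 higher, 7 lower) were called, in place of 5 in each comparison. Over all 9234 genes the calls rose from 1585 to 2709 and from 1550 to 2441, with 26.1% and 76.6% of them higher. The cause was not tested. Normexp correction also moved the share of higher among all calls at 1 month against Lin- cells from 52.1% to 62.9%, with 36 genes of the list still higher. The methods' t-test estimates the spread from 2 arrays a group with no pooling across genes. After adjustment it called 22 genes at 1 month against Lin- cells, beside 4571 of all 28519. At 5 months against 1 month it called 0, beside 14 of 9231, and at 1 month against primary hepatocytes 0, beside 2 of 9228. At its unadjusted threshold it called 9 and 3 in these, beside 2283 and 1776. At 5 months against primary hepatocytes the unadjusted count was 3, beside 1363. Quantile normalization gave 2 higher and 3 lower in both comparisons with 1-month cells, with 46.9% and 53.2% of all calls higher. Slide as a block was not run, since it is the same as the group split between slides and constant within one. No paired analysis was run. Groups on 1 slide share no replicate number, and the labels do not say that equal numbers on different slides pair arrays. With 1 array left out, the lone array of a group is assumed to vary like the others. No filter on dim probes, the mean of probes, the deposited log2 values and scaling over all probes kept the counts of called genes of the list within 1.5 times. Over all genes, no filter on dim probes moved the calls from 15782 to 26463 at 1 month against Lin- cells (52.1% to 71.9% higher), from 110 to 38 at 5 months against primary hepatocytes and from 1550 to 4045 at 1 month against primary hepatocytes (69.5% to 84.8% higher). Lin- levels near background give only lower bounds of a fold.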
